A study of Mus musculus with 12 samples.

Results

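MD(ND2bHLH), called the chimera here, is a MyoD protein that carries the basic helix-loop-helix (bHLH) domain of NeuroD2 in place of its own. The regions described here are those that the chimera's list of binding sites held and no other list of the series did. Members were chosen by the overlap of deposited intervals alone: by pooling the intervals of the 5 deposited lists, joining intervals that overlapped by at least 1 base, and keeping the joined regions made only of chimera intervals. This gave 1972 chimera-alone regions among 60136 joined regions, or 3.28%. Each is 1 chimera site, so they are also 1972 of the 14375 sites of the chimera list, or 13.7%. Which regions are members follows from the rule, so these counts describe the selection and were not tested.

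The sites come from chromatin immunoprecipitation followed by sequencing (ChIP-seq) in the mouse embryonal carcinoma line P19, with 12 libraries that form 6 groups of 2. The cells were transduced with MD(ND2bHLH), with its mutants MD(ND2bHLH)WC and MD(ND2bHLH)WCS, with MyoD or with NeuroD2, or were left untransduced as a negative control. The labels do not say what WC and WCS change. All infected cells shared a medium with polybrene at 8 µg/ml and were moved after 48 h to a neuronal medium. MyoD antibodies 6196 and 6975 were used for MyoD and for the 3 chimeric proteins, and NeuroD2 antibodies 1165 and 1240 for NeuroD2. Each transduced group has 1 list for both of its libraries, which differ in antibody, and the untransduced cells enter no comparison here. No spread between replicates and no background level can therefore be given, and no difference below was tested. The 95% intervals are exact binomial (Clopper-Pearson) for shares and order-statistic intervals for medians. The interval of a difference of medians runs between opposite ends of the 2 medians' intervals. It is wider than a 95% interval of the difference. All these intervals cover counting error only, and sites that lie close together are not independent. Read depth is unknown.

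MyoD directs skeletal muscle formation and NeuroD2 acts in neurons. Both bind DNA as bHLH dimers at E-boxes, short motifs of the form CANNTG whose central bases differ in preference between bHLH factors. The bHLH domain makes the contacts with DNA and with the dimer partner, and other parts of the protein carry activation and cofactor functions. Regions of the chimera alone are places where a protein made from both parents was listed and neither parent was. No genome of the build of these lists, mm9, was used here, so neither E-boxes nor genes could be placed at the regions, and regions are named by position (mm9, 1-based). Fewer cells carrying the protein, less protein per cell and weaker binding cannot be told apart in such bulk samples.

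The 1972 regions had lower values than the rest of the chimera list. The authors' value of a site, read as −log10 of a p-value, had a median of 7.17 in chimera-alone regions (95% interval 7.08 to 7.24) and 10.2 in the other 12403 chimera sites (9.96 to 10.2). The middle 50% of values ran from 5.91 to 9.54 in chimera-alone regions and from 7.08 to 17.6 in the other chimera sites. The median of the whole chimera list was 9.49, and 497 of the chimera-alone regions (25.2%) exceeded it. Values over 20 were reached by 65 chimera-alone regions, or 3.30% (2.55 to 4.18%), and by 2648 of the other chimera sites, or 21.3% (20.6 to 22.1%). The lists share a lower limit near 5, with a lowest value of 5.002 in any list, so the members crowd toward the limit at which a site enters a list.

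Width differed in the same direction. Chimera-alone regions had a median width of 379 bp (375 to 383 bp) and the other chimera sites 442 bp (438 to 446 bp). A wider site is more likely to share a base with another list, so the overlap rule itself favours narrow members. How much of the difference follows from the rule was not tested. The narrowest member measured 201 bp and the widest 1699 bp, against 200 and 3746 bp in the other chimera sites.

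**Figure D1:**
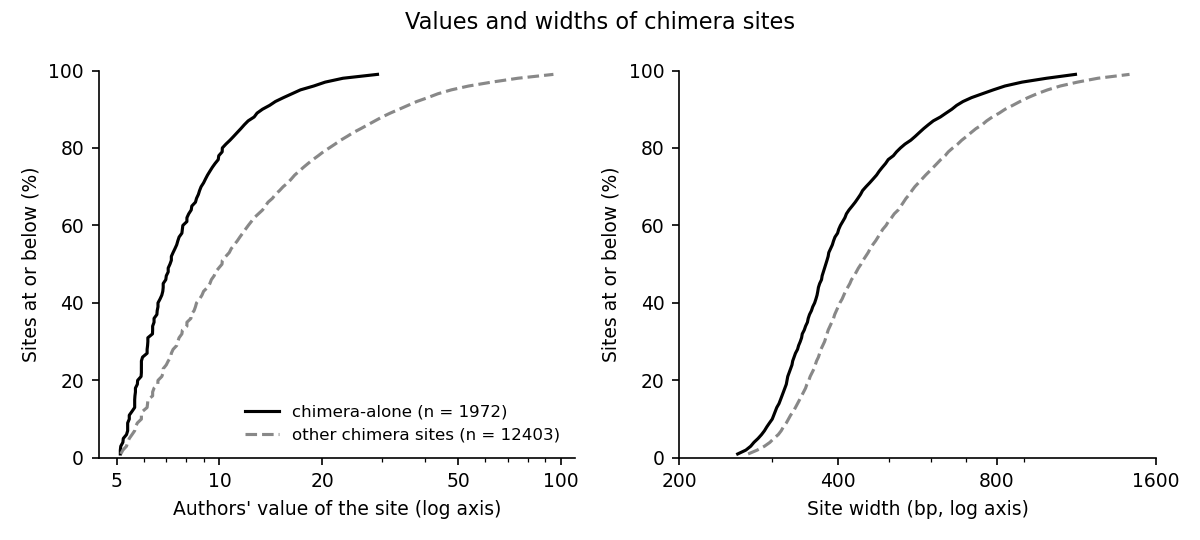
Cumulative share of sites (vertical axis, percent) at or below a given authors' value (left, log axis) and width in bp (right, log axis), for the 1st to the 99th percentile of chimera-alone regions (solid black) and of the other chimera sites (dashed grey). The black curves lie to the left, with medians of 7.17 and 379 bp in chimera-alone regions, against 10.2 and 442 bp in the other chimera sites.

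Value rose with the number of other lists that held a chimera site, and the chimera-alone regions were the low end of that order. The median was 7.17 in the 1972 regions of no other list, 8.30 in the 3512 chimera sites found in 1 other list, 9.38 in the 1815 sites in 2, 9.65 in the 3564 sites in 3 and 15.7 in the 3512 sites found in all 4. The intervals of the sites in 2 lists (8.99 to 9.71) and in 3 lists (9.47 to 9.92) overlapped, and those of the other steps did not. Among the chimera sites in 1 other list, the 2667 shared with MyoD alone had a median of 8.51, the 527 shared with the WC mutant alone 8.04, the 207 shared with NeuroD2 alone 7.36 and the 111 shared with the WCS mutant alone 7.32. The last of these medians lie near that of the chimera-alone regions.

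The share of chimera sites held alone fell along the list. Divided into 10 deciles by value, it was 26.0% in decile 1, that of the lowest values (374 of 1438 sites), 15.3% in decile 5, and in decile 10 1.25% (18 of 1438 sites, 0.744 to 1.97%). The same share in deciles 1 and 10 was 36.5% and 0.185% for the WC mutant, 27.9% and 0% for the WCS mutant (0 of 2247 sites, exact upper limit 0.164%), 72.2% and 16.3% for MyoD, and 58.4% and 5.28% for NeuroD2. In decile 6, 12.8% of chimera sites were alone (11.1 to 14.6%), against 9.17% for the WC mutant (8.11 to 10.3%) and 2.36% for the WCS mutant (1.77 to 3.08%). From decile 5 to decile 10 the share was higher in the chimera list than in either mutant's list, and both parents had larger shares than the chimera in every decile. As a percentile of its own list, the median value of the regions held alone was 29.2 for the chimera, 21.8 for the WC mutant, 15.8 for the WCS mutant, 39.4 for MyoD and 30.6 for NeuroD2. The lists differ in length, and the more sites the other lists hold, the fewer are left alone. Joined regions in 1 list alone made up 6.31% of all for the WC mutant, 3.04% for the WCS mutant, 22.2% for MyoD and 17.3% for NeuroD2.

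**Figure D2:**
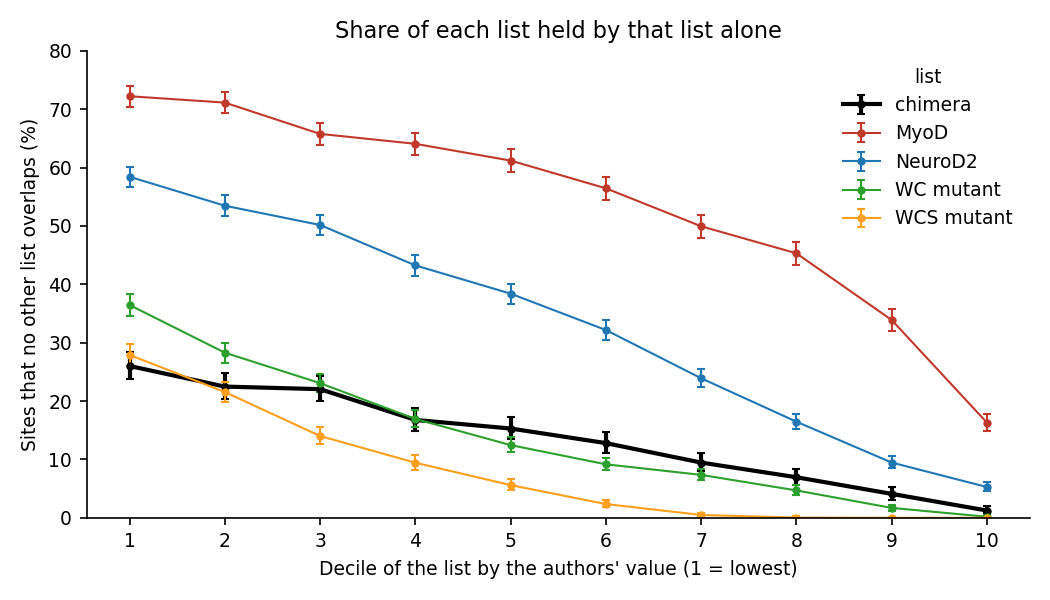
Share of each list (vertical axis, percent) that no other list overlaps, by decile of that list in order of the authors' value (horizontal axis, 1 lowest to 10 highest), with bars for exact 95% intervals that cover counting error only. The chimera (thick black) has 26.0% in decile 1 and 1.25% in decile 10, and stands above both mutants from decile 5 on.

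Value and width are related, and each kept its direction within bins of the other. With the chimera list divided into 5 quintiles by width, the median value of chimera-alone regions was 6.33 in the narrowest quintile, against 6.85 for the other chimera sites of that quintile. In the widest quintile it was 8.03 for chimera-alone regions and 13.6 for the other chimera sites. With the list divided into 5 quintiles by value, the median width was 345 bp for chimera-alone regions and 368 bp for the other chimera sites in the lowest quintile. In the highest quintile it was 426 bp for the 77 chimera-alone regions and 533 bp for the other chimera sites. In quintiles 2 and 4 the interval of the width difference included 0. The share held alone was highest where both were low, at 28.5% of the 1241 sites in the lowest quintile of value and of width. It was 1.26% of the 949 sites in the highest quintile of both. The width difference depends on how overlap is defined: where site centres had to lie at most 100 bases apart, the median width of chimera-alone regions was 79 bp greater than that of the other chimera sites.

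**Figure D3:**
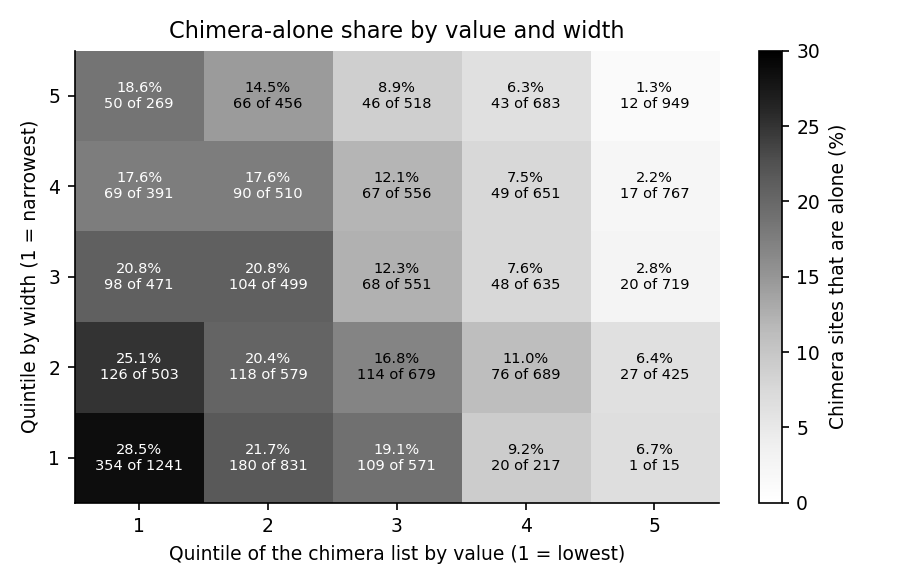
Share of chimera sites that are alone (shade and text, percent, with the number of sites), by quintile of the chimera list in value (horizontal axis) and in width (vertical axis). The darkest cell, 28.5%, is the lowest quintile of both and the palest, 1.26%, the highest quintile of both.

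The members of highest value varied in width, and none of the 10 highest was among the 3 widest or the 3 narrowest. The 10 highest lay on 8 chromosomes, with widths of 376 to 835 bp and a median of 422.5 bp. The first was chr7:31834841-31835292, with a value of 91.6, which ranked 140th in the chimera list. NeuroD2, the WC mutant and the WCS mutant each had a site 8.79 to 8.84 kb from it and the nearest MyoD site was 30.3 kb away. The second was chr13:58087963-58088408, with a value of 81.9, and its nearest neighbour in another list was a NeuroD2 site at 2.91 kb. The third, chr10:61391458-61392292, had a value of 73.3, a width of 835 bp and a NeuroD2 site at 7.27 kb. All 3 regions had a NeuroD2 site within 10 kb and no MyoD site within that distance.

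The other 7 had values of 60.5 to 35.9 and more varied surroundings. At chr3:20041555-20041946, with a value of 60.5, a MyoD site lay at 1.96 kb, and the nearest sites of NeuroD2, the WC mutant, the WCS mutant and the chimera itself were 377.7, 331.3, 518.8 and 497.0 kb away. At chr13:97205705-97206123, with a value of 54.7, the nearest site of another list was 223.8 kb away. A second chimera-alone region with a value of 7.08 lay 2.08 kb from it, so this was a pair of members far from every other list. The region chr2:173132360-173133030, with a value of 53.0, had a NeuroD2 site at 4.46 kb. The region chr10:41012797-41013177, with a value of 40.4, had a MyoD site at 9.26 kb and sites of the other 3 lists at 12.4 to 12.5 kb. Closest to another list was chr6:83490038-83490413, with a value of 37.4, at 0.451 kb from a NeuroD2 site, whereas sites of MyoD and of both mutants lay near 15.3 kb. The last of the 10 were chr14:49076369-49076794 and chr5:96885495-96885886, which shared a value of 35.9 and had their nearest neighbours in another list at 18.2 and 9.67 kb. Of the 10 regions, 8 had a site of another list within 10 kb. Over all 10, at any distance, the nearest site was from NeuroD2 in 4, the WC mutant in 3, MyoD in 2 and the WCS mutant in 1.

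At the other end, the regions with the lowest value, 5.035, included chr15:98461908-98462235, chr5:143669852-143670272 and chr18:75528711-75529150. The first had a MyoD site at 0.967 kb and the second a NeuroD2 site at 0.313 kb. The widest members were chr11:3944679-3946377, with 1699 bp and a value of 11.5, chr11:82200908-82202526, with 1619 bp and a value of 6.25, and chr5:121901852-121903452, with 1601 bp and a value of 9.54. The narrowest, chr6:26751213-26751413, chr17:23166761-23166963 and chr9:26778210-26778413, had 201 to 204 bp and values of 10.3, 10.7 and 7.10. Neither the widest nor the narrowest members were among those of highest value.

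Near misses of the overlap rule were few on the excluded side. The member closest to another list was chr13:32894436-32894982, with a value of 8.03, which lay 5 bases from a MyoD site. Next came chr15:58806810-58807130, 9 bases from a NeuroD2 site, and chr12:112083333-112083764, 11 bases from a MyoD site. Just outside the rule, chr3:109568251-109568535 (value 8.30) shared 2 bases with a NeuroD2 site, chr1:75396152-75396950 (6.79) shared 7 bases with a MyoD site and chr6:127982539-127983163 (7.62) shared 12 bases with a MyoD site. Only 21 of the 12403 other chimera sites, 0.169%, were left out through overlaps of at most 100 bases.

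Most chimera-alone regions lay more than 1 kb from every site of the other lists, and most lay within 10 kb of one. The gaps were not compared with those of random positions. The median gap to the nearest site of any other list was 7.59 kb, and the middle 50% of gaps ran from 2.21 to 20.4 kb. Within 0.5 kb of another list lay 198 regions (10.0%, 8.75 to 11.5%), within 1 kb 310 (15.7%, 14.1 to 17.4%) and within 10 kb 1121 (56.8%, 54.6 to 59.0%). The 851 regions with no other list within 10 kb had a median value of 7.08 (6.97 to 7.24) and the 198 regions with another list within 0.5 kb also 7.08 (6.70 to 7.56). The share within 1 kb, by quintile of value from lowest to highest, was 15.9%, 17.7%, 14.4%, 13.1% and 14.3%, with overlapping intervals.

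For 56 regions (2.84%) the nearest site of another list was more than 100 kb away. Their median width was 321.5 bp (306 to 373 bp) and their median value 7.10. The farthest was chr5:69947949-69948531, with a value of 5.65, whose nearest neighbour was a NeuroD2 site at 929.8 kb. The next were chr17:92551586-92551804, with a value of 5.50 and 419.2 kb to a NeuroD2 site, and chr1:177422098-177422587, with a value of 7.56 and 379.6 kb to a NeuroD2 site.

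The surroundings of the chimera-alone regions held a MyoD site about as often as a NeuroD2 site, although the NeuroD2 list is longer (31458 against 24935 sites). They held sites of each list less often than the surroundings of the other chimera sites. A MyoD site lay within 10 kb of 35.4% of chimera-alone regions (33.3 to 37.6%), against 46.4% of the other chimera sites (45.5 to 47.3%), where sites that overlap the chimera site itself were not counted. For NeuroD2 the shares were 35.9% of chimera-alone regions (33.7 to 38.0%) and 48.5% of the other chimera sites (47.7 to 49.4%). For the WC mutant they were 34.7% and 46.9%, for the WCS mutant 31.4% and 42.1%, and for a further chimera site 28.3% and 36.3%. Within the quintile of lowest value the MyoD shares were 35.9% in chimera-alone regions and 43.1% in the other chimera sites, and in the quintile of highest value 36.4% (25.7 to 48.1%) and 51.8% (49.9 to 53.7%). This order depends on the overlap rule. With centres at most 100 bases apart the MyoD share was 56.2% in chimera-alone regions and 47.4% in the other chimera sites, and for the other 3 lists chimera-alone regions were also higher, by 2.44 to 4.22 points. A further chimera site then lay within 10 kb of 35.3% of chimera-alone regions and 35.2% of the other chimera sites.

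Looking at both parents together, 19.0% of chimera-alone regions had MyoD and NeuroD2 sites within 10 kb, 16.4% had MyoD without NeuroD2, 16.8% had NeuroD2 without MyoD and 47.8% had neither. In the other chimera sites these shares were 29.8%, 16.6%, 18.7% and 34.9%. Under this overlap rule the difference thus lay in the places with sites of both parents and in those with neither. The shares with 1 parent were close. This split was not repeated under the rule on centres. The nearest site of another list came from MyoD in 734 regions (37.2%), NeuroD2 in 584 (29.6%), the WC mutant in 422 (21.4%) and the WCS mutant in 220 (11.2%), with ties in 12. These counts do not rank the lists by distance. The median gap was 18.6 kb to MyoD, 17.7 kb to NeuroD2, 18.8 kb to the WC mutant and 22.5 kb to the WCS mutant. Where sites of several lists lie together, only the closest is counted. The lists hold 24935, 31458, 27045 and 22462 sites in the same order, and the other chimera sites were not counted this way.

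**Figure D4:**
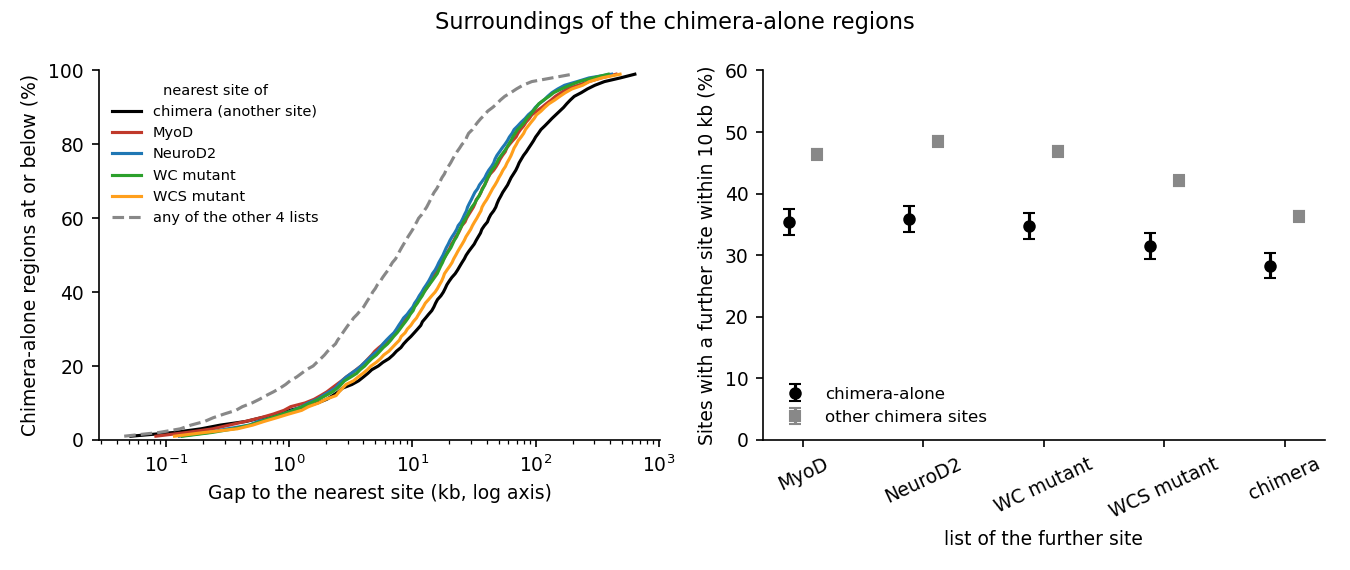
Left, cumulative share of chimera-alone regions (percent) by gap in kb (log axis) to the nearest site of each list, to another chimera site, and to any of the other 4 lists (dashed, median 7.59 kb). Right, share of chimera-alone regions (black circles) and of other chimera sites (grey squares) with a further site of each list within 10 kb, with exact 95% intervals; for MyoD 35.4% of chimera-alone regions and 46.4% of other chimera sites.

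Chimera-alone regions, like the other chimera sites, seldom stood beside another chimera site. A further chimera site lay within 1 kb of 158 regions (8.01%, 6.85 to 9.30%) and of 1309 other chimera sites (10.6%, 10.0 to 11.1%). For 24 of the 158 (15.2%, 9.98 to 21.8%) that neighbour was itself a chimera-alone region, and in the others it was a site that another list held too. The neighbour was a chimera-alone region for 9.93% of the 1309 other chimera sites (8.36 to 11.7%). Members made up 13.7% of the whole chimera list. The neighbour had the higher value in 115 of the 158 pairs (72.8%), with a median of 7.37 in the members and 11.8 in the neighbours. All members together had a median percentile of 29.2 in the chimera list, whose median value was 9.49. Most chimera sites therefore exceed a typical member wherever they lie. Whether neighbours differ from chimera sites elsewhere was not tested.

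Members were spread thinly along the genome. They fell in 1779 windows of 100 kb, of which 1607 held 1, 154 held 2, 16 held 3, 1 held 4 and 1 held 5. The window from 102600001 on chromosome 9 held 5, with values of 6.15 to 12.4, beside 7 chimera, 3 WC mutant, 2 WCS mutant, 1 MyoD and 3 NeuroD2 sites in all. Its first members, chr9:102617178-102618034 and chr9:102618044-102618435, were only 9 bases apart. The window from 6400001 on chromosome 17 held 4 members beside 5 chimera, 5 WC mutant, 4 WCS mutant, 6 MyoD and 3 NeuroD2 sites. The window from 41500001 on chromosome 19 held 3 members, which were all the chimera sites there, with values of 9.65, 5.39 and 6.56, beside 1 WC mutant, 1 MyoD and no NeuroD2 or WCS mutant site.

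By chromosome the share of chimera sites held alone was highest on chromosome 3, at 18.2% (113 of 620 sites, 15.3 to 21.5%), followed by chromosome 13 at 17.2% and chromosome 14 at 16.2%. It was lowest on chromosome 17, at 10.9% (74 of 677 sites, 8.68 to 13.5%), followed by chromosome 11 at 11.1% and chromosome 7 at 11.6%. The intervals of chromosomes 3 and 17 do not overlap, but they were picked as the ends of 19 chromosomes. Values moved with part of this order: the median of all chimera sites was 8.72 on chromosome 3 and 9.49 on chromosome 17. Had each quintile of value held its list-wide share of members, chromosome 3 would have had 89.4 members and chromosome 17 92.4, so the numbers found were 1.26 and 0.801 times those. The density of chimera sites did not follow the order throughout: it was 4.06 per Mb spanned on chromosome 3 and 7.50 on chromosome 17, but 4.55 on chromosome 7, with a low share, and 7.74 on chromosome 9, with a share of 15.5%. In the other lists, the shares held alone on chromosomes 3 and 17 were 14.2% and 14.1% for the WC mutant, 8.95% and 8.05% for the WCS mutant, 57.9% and 51.5% for MyoD and 37.0% and 29.7% for NeuroD2. The part of density and value in the order of chromosomes was not tested.

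**Figure D5:**
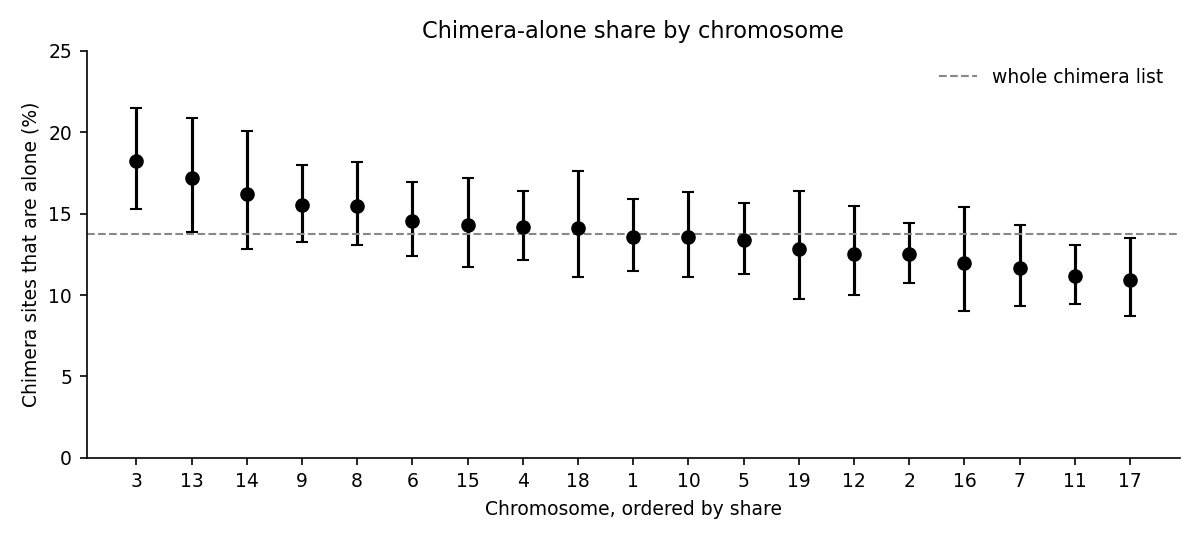
Share of chimera sites that are alone (vertical axis, percent) on each of the 19 chromosomes of the chimera list, ordered by share, with exact 95% intervals that cover counting error only. The dashed line is the share of the whole list, 13.7%, and the points run from 18.2% on chromosome 3 to 10.9% on chromosome 17.

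The set rests on what the other lists hold. With each list shortened to the 14375 sites of the chimera list, 3728 chimera sites were alone, and the 1972 regions were 52.9% of them. With site centres at most 100 bases apart 3456 were alone, again with all 1972 among them (57.1%). With the 50% of each list that had the highest values 1129 were alone, of which 497 were among the 1972. The chimera and MyoD lists hold no site on chromosome X and none under 125 bp, while NeuroD2 and both mutants have sites as short as 53 or 54 bp. With 19 autosomes and widths of 200 to 2000 bp in every list the set was 2016 regions and included all 1972. Shortening the lists, the limit on centres and this filter could not remove a member, so keeping all 1972 does not show stability. Whether the lists were filtered alike cannot be told apart from the protein.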

How the data were processed

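The lists of sites deposited for the chimera, the WC mutant, the WCS mutant, MyoD and NeuroD2 were analysed, 1 for both libraries of a group per the labels. CASAVA 1.8.2, BWA 0.7.5 and build mm9 were used per the submitters' processing notes. For the peak caller, its background and any pooling of reads, the methods are not given in the sources used. The authors give each site a value, taken here as −log10 of a p-value, since all exceed 5 and the highest finite one is 312.2. Values were compared only within a list. Depth is unknown.

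Sites overlapped where they shared at least 1 base. A gap is the number of bases between the nearest ends. Regions were named by rule: the 10 highest values, the 3 lowest, widest, narrowest, nearest, farthest and just excluded, the 3 windows with the most members, and the end chromosomes. Members and measures were chosen with earlier results of these data known. The overlap code was tested on simulated data. Alternatives changed the overlap rule, the list length and the filters. Software was Python 3.11.15 with pandas 2.3.3, numpy 2.4.6, matplotlib 3.10.9 and scipy 1.17.1.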

Additional observations from a re-analysis of the deposited data

How the results depend on the processing

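Of 70 alternative values for the chimera-alone regions, 26 stayed within the interval of the reported value (for counts, within 1.5 times), 43 moved and 1, the difference in width, changed sign. The shares within 10 kb are counted there by their own size, and under the rule on centres their difference from the other chimera sites changed sign for all 5 lists. With overlap of at least 50% of the shorter site (1998 regions) and with autosomes and widths of 200 to 2000 bp (2016 regions) all values stayed. With centres at most 100 bases apart, 3456 chimera sites were alone (24.0%), and their median value was lower than that of the other chimera sites by −2.15, but their median width was 79 bp greater. Of these, 51.9% had another list within 1 kb, and within 10 kb 56.2% had a MyoD, 53.5% a NeuroD2, 53.0% a WC mutant, 49.5% a WCS mutant and 35.3% a further chimera site. Regions at least 500 bases from every other list made up 12.3% of the chimera list, 6.37% had another list within 1 kb, and the shares within 10 kb were 31.2% for MyoD, 32.2% for NeuroD2, 31.0% for the WC mutant, 27.8% for the WCS mutant and 24.6% for the chimera. With each list reduced to its upper 50% by value, 1129 sites were alone (15.7%), 497 of them among the 1972. The difference in median value was −4.70, 9.48% had another list within 1 kb, and the shares within 10 kb were 24.2%, 22.2%, 24.1%, 21.1% and 19.1% in the same order. With lists of equal length, 3728 sites were alone (25.9%), the difference in median value was −3.62, 10.9% had another list within 1 kb, and the shares within 10 kb were 25.9% for MyoD, 22.3% for NeuroD2, 24.3% for the WC mutant and 24.7% for the WCS mutant. In each alternative except the rule on centres, these shares were below those of the other chimera sites. Within quintiles by width, from narrow to wide, the difference in median value was −0.514, −1.93, −3.96, −4.00 and −5.60. Within quintiles by value, from low to high, the difference in median width was −23, −17, −49, −43.5 and −107 bp, with intervals that include 0 in quintiles 2 and 4. A limit on the distance between centres is harder to meet for wide sites, by its construction. Whether this accounts for the change of sign in width was not tested, and neither were other causes.

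No paired analysis was possible because each group has 1 list for both libraries, and for the same reason no value without a single library exists. Sites below the limit near 5 are in no list, so absence from a list does not show absence of binding.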

Other observations

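Dense windows, those of 100 kb in which at least 1 list had 10 or more sites, held 98 chimera-alone regions, or 4.97% (4.05 to 6.02%). They held 1217 of the other chimera sites, or 9.81% (9.29 to 10.35%). These windows count sites that overlap the chimera site itself, which the rule gives to the other chimera sites and denies to members. Part of this difference is therefore built in by the selection, and how much was not tested. At the other extreme, 182 chimera-alone regions, or 9.23% (7.99 to 10.6%), lay in windows with no site of the other 4 lists. For the other chimera sites the number was 0, which the rule nearly fixes, since each of them overlaps a site of another list. Counted within 50 kb of the site and without sites that overlap it, chimera-alone regions had on average 2.42 MyoD, 2.73 NeuroD2, 2.38 WC mutant and 2.08 WCS mutant sites, and the other chimera sites 3.01, 3.63, 3.22 and 2.81.

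The chimera sites that overlapped neither parent numbered 2998, and the 1972 chimera-alone regions were 65.8% of them. The rest were 527 sites shared with the WC mutant, 111 with the WCS mutant and 388 with both. Values repeat often throughout the chimera list, with 286 distinct values among the 1972 members and 1187 among all 14375 sites.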
